A study of Homo sapiens with 8 samples.

Results

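TGM2, HIC1, DAAM2 and ARL14EPL are 4 genes that U-937 cells barely transcribed in vehicle and transcribed strongly with all-trans retinoic acid (ATRA). They were chosen by symbol from the 61125 genes of the deposited tables, because they were near silent in the vehicle libraries and high in the ATRA libraries. The values of those 4 libraries therefore chose them, and the difference between ATRA and vehicle is given here as a description, with no test. All 4 passed the filter on low counts that left 14995 genes for testing. TGM2, DAAM2 and ARL14EPL passed it only through the groups that received ATRA.

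U-937 is an established human pro-monocytic leukemia line. Cells were treated for 72 h with 250 µM L-ascorbic acid (LAA) together with 1 µM ATRA, with ATRA alone, with LAA alone, or with the PBS and DMSO in which the compounds were dissolved (vehicle), with 2 libraries in each group and 8 in all. The study concerns retinoic acid and ascorbate acting together in myeloid leukemia through TET2. Every library comes from the same line, and no label says that the 2 libraries of a group came from separate cultures, so p-values measure the spread between these libraries, which may be technical.

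ATRA binds nuclear retinoic acid receptors, which sit on DNA as heterodimers with retinoid X receptors at pairs of short half-sites and replace corepressors with coactivators when the ligand is bound. In myeloid leukemia cells this drives differentiation towards granulocyte-like or monocyte-like cells. Ascorbate is a cofactor that helps TET dioxygenases to oxidise 5-methylcytosine in DNA. TGM2 encodes tissue transglutaminase, which cross-links proteins through glutamine and lysine side chains and is a long-known retinoid-induced gene of myeloid cells. HIC1 encodes a zinc finger transcriptional repressor whose promoter is often hypermethylated in cancer. DAAM2 encodes a formin that links Dishevelled in Wnt signalling to actin assembly. ARL14EPL is named for its likeness to ARL14EP, an effector of the small GTPase ARL14 that works with the myosin MYO1E in human dendritic cells, and no role of its own is given here.

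In the GENCODE 29 annotation of GRCh38, TGM2 (ENSG00000198959) lies on the minus strand of chromosome 20 at 38127387 to 38166578. HIC1 (ENSG00000177374) lies on the plus strand of chromosome 17 at 2054154 to 2063241. DAAM2 (ENSG00000146122) lies on the plus strand of chromosome 6 at 39792298 to 39904877, and ARL14EPL (ENSG00000268223) on the plus strand of chromosome 5 at 116032324 to 116060118. The 4 genes are thus on 4 chromosomes. Each overlaps a gene of the opposite strand, and the strand setting of the counting is not given in the sources used here. These partners are RPRD1B for TGM2, SMG6 for HIC1, DAAM2-AS1 for DAAM2 and a pseudogene for ARL14EPL. MOCS1 also overlaps DAAM2 on the opposite strand and had no counts.

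RefSeq promoter sequences, from 250 bases before a start site to 50 after it, were at hand for 1 of the 4 genes, DAAM2, which has 2 start sites on the plus strand. They are shown because they are where a retinoid response element of the gene could be looked for. Both were searched on both strands for the half-sites AGGTCA and GGGTCA and for the variants AGTTCA and GGTTCA, and capitals mark each half-site found, written as it reads on the plus strand.
DAAM2 promoter 1, chr6:39792126-39792425, GRCh38.p14: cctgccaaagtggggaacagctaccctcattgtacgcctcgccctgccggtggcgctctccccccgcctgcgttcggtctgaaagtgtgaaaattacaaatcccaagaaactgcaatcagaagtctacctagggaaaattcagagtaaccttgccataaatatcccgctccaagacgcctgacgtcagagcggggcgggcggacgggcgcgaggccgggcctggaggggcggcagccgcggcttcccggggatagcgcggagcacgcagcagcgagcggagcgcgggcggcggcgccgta
DAAM2 promoter 2, chr6:39792730-39793029, GRCh38.p14: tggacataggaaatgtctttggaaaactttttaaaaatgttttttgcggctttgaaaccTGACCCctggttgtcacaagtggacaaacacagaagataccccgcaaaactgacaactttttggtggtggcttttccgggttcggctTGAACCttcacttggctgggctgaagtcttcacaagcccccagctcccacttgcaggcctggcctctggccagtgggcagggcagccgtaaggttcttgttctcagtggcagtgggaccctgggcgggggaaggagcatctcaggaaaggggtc
Promoter 1 held none of the 4 half-sites. Promoter 2 held GGGTCA on the minus strand at positions -191 to -186 from the start site and GGTTCA on the minus strand at -104 to -99. Any of the 4 half-sites was present in 38.6% of 35116 RefSeq promoters of the same length, GGGTCA in 14.1% and GGTTCA in 8.62%. Neither DAAM2 promoter held a direct repeat of these half-sites spaced by 1, 2 or 5 bases, which occurred in 0.131%, 0.0399% and 0.0883% of promoters. These are letter matches in a window, and they show no binding.

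The 2 DAAM2 promoters differed in base composition. Promoter 1 had 32 CpG dinucleotides and 64.3% G and C, and 81.1% of promoters had fewer CpG. Promoter 2 had 6 CpG and 53% G and C, and 33.7% of promoters had fewer. The GC box GGGCGG occurred 4 times in promoter 1, with a pair of overlapping matches, and once in promoter 2, against 45% of promoters with at least 1. Neither held TATAAA, which 11.5% of promoters did.

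Library totals ran from 18462552 to 24166770 estimated counts, and the 10 most abundant genes took between 6.08% and 11.6% of a library. The myeloid markers SPI1, CD33, LYZ and CEBPA were present in all 8 libraries, at 148.5 to 419.4, 44.84 to 69.55, 445.6 to 1086 and 426.3 to 650.4 CPM (counts scaled to library size, with TMM scaling between libraries), while MPO did not exceed 0.838 CPM. TGM2 is also made by endothelial cells and fibroblasts, and HIC1 by fibroblasts. The summed level of 6 fibroblast markers was 2.12 to 2.76 CPM with LAA+ATRA, 1.25 to 2.05 CPM with ATRA, 0.992 to 1.68 CPM with LAA and 1.31 to 1.49 CPM in vehicle, with COL3A1, PDGFRA and DCN at 0, and the part of these markers in the results was not tested. The 4 endothelial markers summed to at most 0.129 CPM with CDH5 and KDR at 0, and the 3 epithelial markers to at most 0.145 CPM with CDH1 and KRT19 at 0. In bulk RNA, more cells with a transcript and more transcript per cell cannot be told apart.

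TGM2, the cross-linking enzyme, was the most abundant of the 4 in CPM. It stood at 124.9 and 97.94 CPM with LAA+ATRA, at 170.4 and 128.6 CPM with ATRA, at 0.0496 and 0 CPM with LAA, and at 0 in both vehicle libraries. The 4 libraries with ATRA lay far above the 4 without it, where TGM2 had 1 estimated count in all; with ATRA against vehicle, 36% of all genes had higher libraries without overlap. With a floor of 3 counts over the vehicle group, which corresponds to 0.0724 CPM, TGM2 was at least 2060-fold higher with ATRA than in vehicle. The floors here, and the Poisson interval given for TGM2 further on, cover counting error only. The intervals of the edgeR fold changes come from the fitted model and also include the spread between libraries.

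HIC1, the transcriptional repressor, was the only one of the 4 with counts in every library. It stood at 97.78 and 78.64 CPM with LAA+ATRA, at 154.2 and 105.4 CPM with ATRA, at 1.04 and 1.155 CPM with LAA, and at 0.529 and 0.679 CPM in vehicle. The levels without ATRA rest on 21 and 21.8 estimated counts with LAA and on 11 and 14 in vehicle. The log2 fold change of ATRA over vehicle was 7.73 ± 0.267 (SE), a 213-fold difference.

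DAAM2, the formin, had no counts in any library without ATRA. It stood at 52.13 and 33.42 CPM with LAA+ATRA and at 69.3 and 55.88 CPM with ATRA. Against the floor, DAAM2 was at least 864-fold higher with ATRA than in vehicle. Its antisense partner DAAM2-AS1 had 5.6 and 2 estimated counts with LAA+ATRA and 19 and 3 with ATRA, while DAAM2 itself had 933.4 and 665.4 with LAA+ATRA and 1253.6 and 1296 with ATRA.

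ARL14EPL, the gene related to ARL14EP, was the lowest of the 4. It stood at 7.43 and 5.83 CPM with LAA+ATRA and at 5.69 and 6.21 CPM with ATRA, and at 0 in the 4 libraries without ATRA. Its estimated counts were 133.2 and 116 with LAA+ATRA and 103 and 144 with ATRA, so that the groups overlapped. Its floor-bounded fold was at least 82.2 for ATRA over vehicle. With ATRA it was the only member under 10 CPM.

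**Figure D1:**
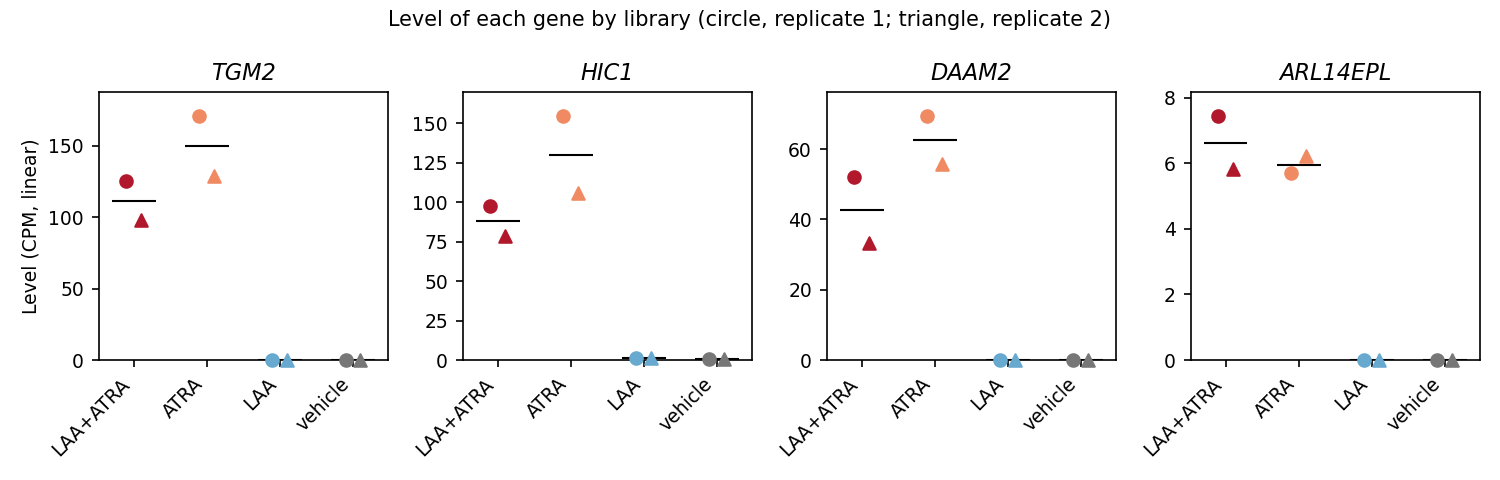
Level of TGM2, HIC1, DAAM2 and ARL14EPL in each of the 8 libraries in CPM, with groups in the order LAA+ATRA, ATRA, LAA and vehicle, and 2 points per group. TGM2, DAAM2 and ARL14EPL have no counts in vehicle, HIC1 keeps 0.604 CPM on average there, and every library with ATRA lies above every library without it.

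Per length, the order of the 4 genes was less spread out. In the deposited FPKM, TGM2 averaged 28.8 ± 3.94 FPKM with LAA+ATRA and 39.3 ± 7.45 FPKM with ATRA (SD, n = 2 each), and HIC1 25.5 ± 2.46 FPKM with LAA+ATRA and 38.6 ± 7.78 FPKM with ATRA. DAAM2 averaged 7.35 ± 2.17 FPKM with LAA+ATRA and 12.6 ± 3.92 FPKM with ATRA, and ARL14EPL 7.23 ± 1.71 FPKM with LAA+ATRA and 6.69 ± 0.822 FPKM with ATRA. TGM2 and HIC1 did not differ beyond their spread in either group, and with LAA+ATRA neither did DAAM2 and ARL14EPL. With ATRA, 81.1% of the tested genes had a lower mean FPKM than TGM2, 80.8% than HIC1, 58.9% than DAAM2 and 46% than ARL14EPL. TGM2 and HIC1 thus reached the upper part of the expressed range, and ARL14EPL a level close to the median gene of 8.2 FPKM.

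The comparison of LAA+ATRA with LAA asks for the ATRA response in cells that also received LAA, and the rule that chose the genes names neither group. It is not fully independent of the choice, which was made with earlier results of these data known. TGM2, DAAM2 and ARL14EPL, with 1 count or none with LAA, passed the low-count filter through the groups with ATRA, LAA+ATRA included. All 4 were higher with LAA+ATRA and all 4 passed an adjusted p of 0.05 in edgeR's quasi-likelihood test, where 36.4% of all tested genes were called and 18.4% were called higher. The libraries of the groups did not overlap for any of the 4, as for 34.3% of all genes in that direction. Adjusted p-values were 3.45e-09 for TGM2, 4.52e-09 for HIC1, 1.17e-07 for DAAM2 and 2.8e-06 for ARL14EPL.

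The sizes of these differences were bounded where LAA libraries had no counts. DAAM2 was at least 559-fold and ARL14EPL at least 86.7-fold higher with LAA+ATRA than with LAA. For TGM2, with 1 count over the LAA libraries, the ratio was 4340, with an exact 95% Poisson interval of 779 to 171000. HIC1 rose by 6.32 ± 0.248 on the log2 scale, with a 95% interval of 5.78 to 6.86, which is 79.9-fold. The calls on all 4 held in each of the 17 alternative analyses.

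The comparison of LAA+ATRA with ATRA asks what LAA adds once ATRA is present. The ATRA libraries had helped to choose the genes, a choice that favours negative values, so the values of the 4 are a description. TGM2, HIC1 and DAAM2 were each lower in both LAA+ATRA libraries than in both ATRA libraries, and ARL14EPL overlapped. None of the 4 passed an adjusted p of 0.05 in edgeR, where 1.01% of all genes were called and 0.52% were called lower. At an unadjusted p under 0.05, 3 of the 4 were lower, against 9.4% of all genes, and 22.9% of all genes had non-overlapping libraries in that direction. Genes at large were not chosen for high ATRA libraries, so these shares are no like-for-like background.

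HIC1 averaged 88.2 ± 13.5 CPM with LAA+ATRA and 130 ± 34.5 CPM with ATRA (SD, n = 2 each), a log2 fold change of -0.56 ± 0.159 (SE) with a 95% interval of -0.9 to -0.21 and an edgeR adjusted p of 0.0978. TGM2 averaged 111 ± 19.1 CPM with LAA+ATRA and 150 ± 29.6 CPM with ATRA, at -0.42 ± 0.153 with an interval of -0.76 to -0.09 and an adjusted p of 0.17. DAAM2 averaged 42.8 ± 13.2 CPM with LAA+ATRA and 62.6 ± 9.49 CPM with ATRA, at -0.55 ± 0.193 with an interval of -0.97 to -0.13 and an adjusted p of 0.165. ARL14EPL averaged 6.63 ± 1.13 CPM with LAA+ATRA and 5.95 ± 0.366 CPM with ATRA, at 0.15 ± 0.285 with an interval of -0.47 to 0.77 and an adjusted p of 0.823.

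These calls turned on the analysis for 3 of the genes. DESeq2 called HIC1 lower with LAA+ATRA, at -0.56 and an adjusted p of 0.0266, and leaving out ATRA replicate 2 gave -0.81 and 0.0313. With no filter on low counts, HIC1, DAAM2 and TGM2 were all called, at adjusted p-values of 0.000464, 0.00451 and 0.0159, and the calls over all genes went to 903, against 152 with the filter. Leaving out LAA+ATRA replicate 1 turned ARL14EPL to -0.03. The ATRA libraries helped to choose the genes, which favours negative values, so the calls on HIC1, DAAM2 and TGM2 are a description as well.

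**Figure D2:**
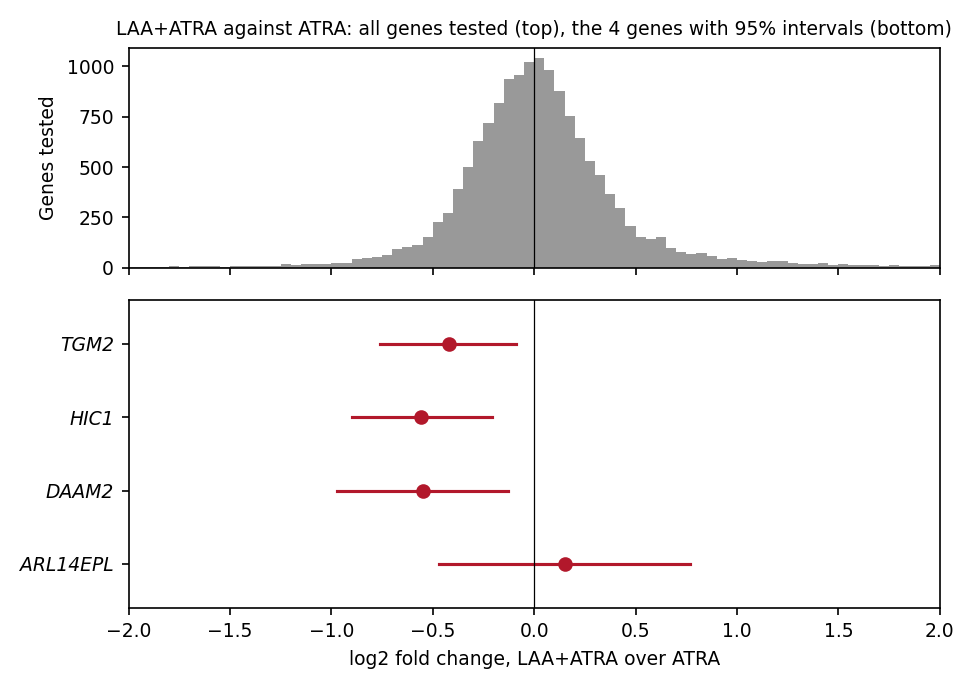
Log2 fold change of LAA+ATRA over ATRA: the histogram shows all 14995 tested genes within the plotted range, and the points with bars show the 4 genes with their 95% intervals. HIC1 (-0.56), DAAM2 (-0.55) and TGM2 (-0.42) lie left of 0 with intervals that do not reach it, and that of ARL14EPL (0.15) spans it. The ATRA libraries helped to choose the genes, which favours negative values, so these positions are a description. The intervals are not adjusted for the number of genes tested. The edgeR adjusted p-values were 0.0978 for HIC1, 0.165 for DAAM2 and 0.17 for TGM2, and none was called.

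The replicates of TGM2, HIC1 and DAAM2 were further apart than those of the median gene. With LAA+ATRA, replicate 1 exceeded replicate 2 by 0.63 on the log2 scale for DAAM2, and 2.15% of the 10472 genes of at least 5 CPM differed by more, with a median difference of 0.16. With ATRA, replicate 1 exceeded replicate 2 by 0.55 for HIC1, and 3.75% of 10449 genes differed by more. For TGM2 the differences were 0.35 with LAA+ATRA and 0.4 with ATRA. They were 0.31 for HIC1 with LAA+ATRA and 0.31 for DAAM2 with ATRA, also with replicate 1 higher. ARL14EPL was at 0.33 with LAA+ATRA and at -0.12 with ATRA. These spreads are of the same order as the differences between the groups.

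LAA alone, set against vehicle, left TGM2, DAAM2 and ARL14EPL at or under the floor, so no fold is given for them. HIC1 averaged 1.1 ± 0.0803 CPM with LAA and 0.604 ± 0.106 CPM in vehicle (SD, n = 2 each), without overlap, as for 28.6% of all genes in that direction. The log2 fold change was 0.85 ± 0.464 with a 95% interval of -0.15 to 1.86. HIC1 was chosen for its low level in these vehicle libraries, so the value is a description, and over all genes 0.0267% were called. The interaction, which is the ATRA response with LAA minus that without it, was -1.41 ± 0.489 for HIC1. It uses both the vehicle and the ATRA libraries that chose HIC1, a choice that favours negative values, so it too is a description, and over all genes 0.00667% were called. For the other 3 genes the interaction could not be fitted meaningfully, because they had no counts or 1 count without ATRA.

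The direction of the HIC1 difference between LAA and vehicle depended on the unit. In FPKM, HIC1 was listed at 0.276 and 0.265 with LAA and at 0.584 and 0.377 in vehicle, the opposite order to its CPM. Dividing counts by FPKM gives the gene length behind each value. For HIC1 it came to 3571 and 3362 bases with LAA+ATRA, to 3490 and 3208 bases with ATRA, to 3779 and 4285 bases with LAA and to 904 and 1798 bases in vehicle. With these lengths as offsets, the log2 fold change of LAA over vehicle turned to -0.72 and the interaction to 0.13, and that of ATRA over vehicle was 6.41.

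Implied lengths also differed between libraries for DAAM2. They were 5848 bases in both LAA+ATRA libraries, and 4505 and 5747 bases in ATRA replicates 1 and 2. Between the ATRA replicates, 8.52% of 10224 genes differed by more. In GENCODE 29, DAAM2-201, DAAM2-202 and DAAM2-208 have 6194, 6224 and 6247 bases and DAAM2-211 has 3871. With lengths as offsets, the DAAM2 difference between LAA+ATRA and ATRA was -0.77. TGM2 (3943 and 3837 bases with LAA+ATRA, 3813 and 3804 bases with ATRA) and ARL14EPL (878 and 985 bases with LAA+ATRA, 929 and 859 bases with ATRA) varied less. The transcripts behind these lengths were not analysed here.

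**Figure D3:**
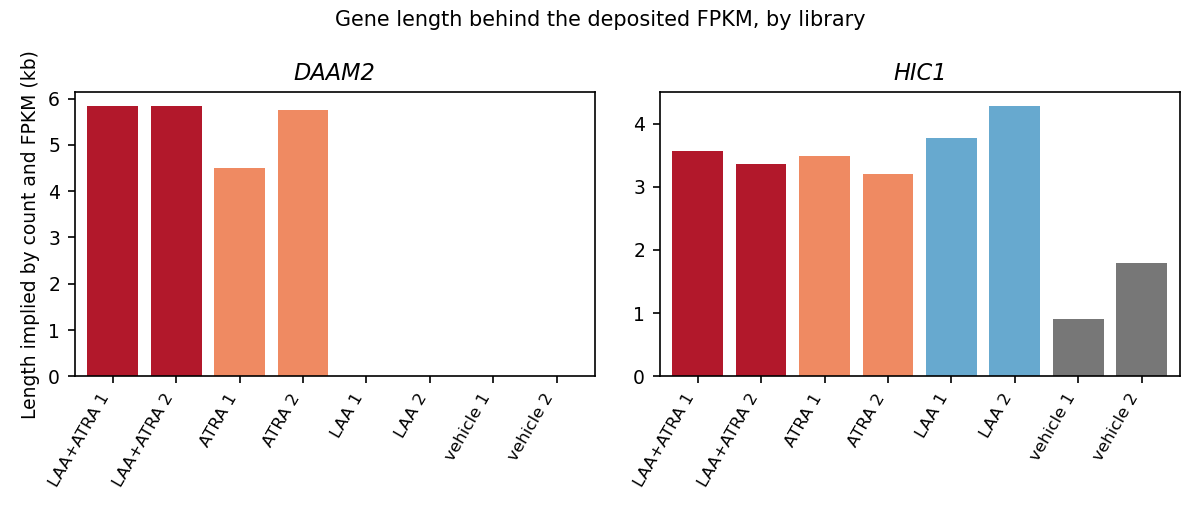
Gene length implied by the deposited count and FPKM of each library, in kb, for DAAM2 and HIC1; each bar is 1 library, and libraries with no usable count have no bar. DAAM2 is shorter in ATRA replicate 1 (4505 bases) than in the other libraries with ATRA, and HIC1 is shortest in vehicle (904 and 1798 bases), where it has 11 and 14 counts.

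TGM2, HIC1 and DAAM2 belong to a small class. Of 13250 tested genes with a symbol, 24 lay under 1 CPM in both vehicle libraries and at 10 CPM or more in both ATRA libraries, and in order of their ATRA level TGM2 had rank 1, HIC1 rank 2 and DAAM2 rank 4. The others of highest level were LILRA5, a leukocyte immunoglobulin-like receptor, at 67.4 ± 6.4 CPM with LAA+ATRA and 85.1 ± 14 CPM with ATRA, and CCL24, an eosinophil chemoattractant, at 27.9 ± 11.9 CPM with LAA+ATRA and 44.7 ± 2.74 CPM with ATRA (SD, n = 2 each). They were followed by CYP4F3, which inactivates leukotriene B4, at 15.7 ± 1.48 CPM with LAA+ATRA and 29.4 ± 5.61 CPM with ATRA, by CD300LB, an activating myeloid receptor, at 19.6 ± 3.27 CPM with LAA+ATRA and 22.9 ± 1.52 CPM with ATRA, and by SIGLEC11, a sialic acid-binding receptor, at 17.7 ± 0.0933 CPM with LAA+ATRA and 22.7 ± 1.53 CPM with ATRA.

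All 24 were called higher with LAA+ATRA than with LAA, as were 18.4% of all genes. Neither group set the limits of the class, but its genes were chosen as rising strongly with ATRA, which favours such calls. Between LAA+ATRA and ATRA the median log2 fold change of the 24 was -0.29, against 0 over all genes, and 17 of 24 (70.8%) were below 0, against 49.4% of all genes. The libraries did not overlap for 11 lower genes (45.8%, against 22.9% of all genes) and for 2 higher ones. None of the 24 was called by edgeR in this comparison, 7 had an unadjusted p under 0.05, as did 18.6% of all genes, DESeq2 called 1, and edgeR with no low-count filter called 6. The class was chosen for high ATRA libraries, so these values are a description. With a limit of 5 CPM, set after the level of ARL14EPL was seen, the class held 44 genes, the 4 included, with a median of -0.21 and 59.1% below 0.

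**Figure D4:**
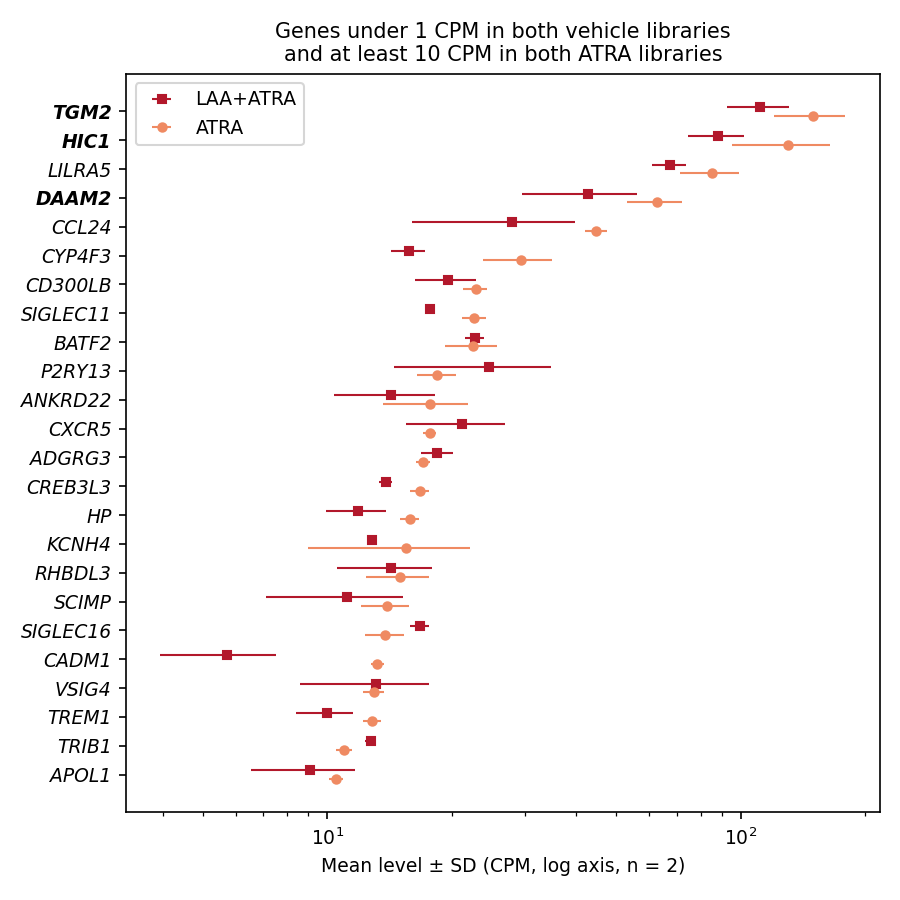
The 24 genes under 1 CPM in both vehicle libraries and at 10 CPM or more in both ATRA libraries, as mean CPM with SD on a log axis, LAA+ATRA (squares) above ATRA (circles), 2 libraries each. TGM2, HIC1 and DAAM2 (bold) hold ranks 1, 2 and 4 by ATRA level, and 17 of the 24 have a negative fold change of LAA+ATRA over ATRA.

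The genes that lie around the 4 were read for a shared response of the region. Within 200 kb, 5 of 14 annotated genes around TGM2 were tested, 5 of 25 around HIC1, 1 of 7 around DAAM2 and 4 of 10 around ARL14EPL. With ATRA against vehicle, where 42.9% of all genes were called (21.9% higher and 21% lower), 3 around TGM2 were called higher and 1 lower, and 2 around HIC1 higher and 1 lower. Around DAAM2 and ARL14EPL none was called by edgeR or DESeq2, with 0 of 1 and 1 of 4 at an unadjusted p under 0.05.

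The 3 higher neighbours of TGM2 all start upstream of it. LBP, whose product binds lipopolysaccharide, stood at 14.58 and 16.93 CPM with LAA+ATRA, at 3.1 and 3.19 CPM with ATRA, at 0.149 and 0.263 CPM with LAA and at 0.0481 and 0.097 CPM in vehicle. Its level was higher with LAA+ATRA than with ATRA, without overlap, by 2.32 ± 0.234 on the log2 scale with an edgeR adjusted p of 0.00252. TGM2 itself was at -0.42 in that comparison. The LBP call was lost on log2(FPKM + 0.1), at 0.0944, and DESeq2 gave LBP no adjusted p.

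BPI, a bactericidal protein of granules related to LBP, stood at 14.92 and 10.1 CPM with LAA+ATRA, at 14.64 and 14.19 CPM with ATRA, at 1.54 and 0.892 CPM with LAA and at 0.866 and 1.79 CPM in vehicle. It rose with ATRA over vehicle by 3.43 ± 0.321 (edgeR adjusted p = 4.5e-06) and with LAA+ATRA over LAA by 3.35 ± 0.329 (9.18e-06). KIAA1755, whose start is the nearest of the 3 at -94.2 kb, rose by 4.66 ± 0.656 over vehicle (edgeR adjusted p = 0.000119). That value rests on 1 and 3 estimated counts in vehicle, near the floor, and on 2.6 ± 0.0768 CPM with ATRA. Over the alternatives it ran from 0.96 to 4.75. Downstream of TGM2, TTI1 fell by 0.47 with ATRA (edgeR adjusted p = 0.00321) and the overlapping RPRD1B was at -0.02 (0.903).

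Around HIC1, SMG6, a nuclease of nonsense-mediated decay that overlaps its 3′ end, stood at 34.64 and 27.99 CPM with LAA+ATRA, at 43.27 and 38.8 CPM with ATRA, at 17.75 and 22.84 CPM with LAA and at 21.16 and 24.19 CPM in vehicle. It rose with ATRA by 0.85 ± 0.149 (edgeR adjusted p = 0.000609). OVCA2 rose by 0.86 ± 0.121 (0.000117), while DPH1, which shares bases with it, was at -0.03 (0.89). RPA1, a subunit of the single-stranded DNA binding complex, fell by 0.49 (edgeR adjusted p = 0.00121). SMG6 shares bases with HIC1 on the other strand, and the part of that overlap in its change was not tested. The tested neighbour of DAAM2, the pseudogene TUBBP9, was at 0.89 (edgeR adjusted p = 0.25). The tested neighbours of ARL14EPL with a symbol were at 0.1 for ATG12 (edgeR adjusted p = 0.566), which acts in autophagy, at 0.24 for AP3S1 (0.0764) and at -0.05 for COMMD10 (0.849). With LAA+ATRA over LAA, AP3S1, a subunit of the AP-3 adaptor, rose by 0.45 (edgeR adjusted p = 0.00462), but not without LAA replicate 2 (0.0589).

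**Figure D5:**
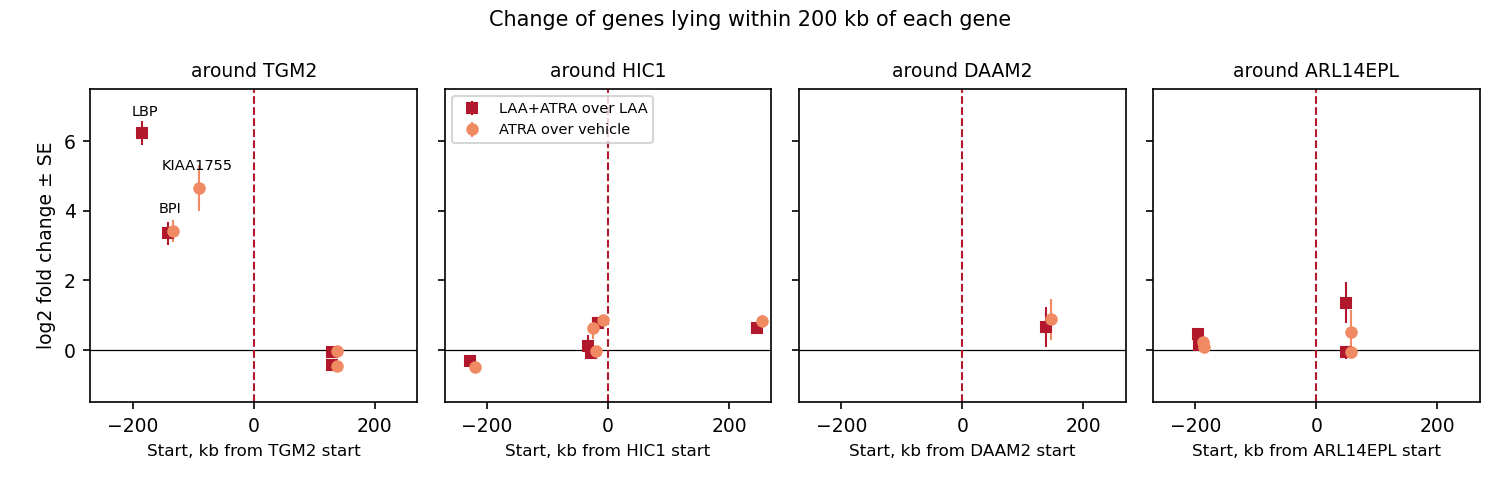
Log2 fold change with SE of the tested genes within 200 kb of TGM2, HIC1, DAAM2 and ARL14EPL, for LAA+ATRA over LAA (squares) and ATRA over vehicle (circles), against the distance of their start from that of the named gene, in kb and negative where upstream; the symbols are moved slightly sideways. Genes with 3 counts or fewer in the group set against are left out; LBP, BPI and KIAA1755 upstream of TGM2 stand above the rest.

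Genes of known retinoid response were read beside the 4. Of 25 listed, 16 were tested, and with ATRA against vehicle 10 were called higher and 2 lower, with a median log2 fold change of 1.77, against 0 over all genes. For this and each of the lists that follow, the share of all genes called with ATRA was 21.9% higher and 21% lower. CD38, an NAD-consuming surface enzyme, rose by 6.97 ± 0.159 (edgeR adjusted p = 1.28e-10), and DHRS3, a retinal reductase, by 4.02 ± 0.155 (3.19e-09). CEBPE, a transcription factor of granulocyte maturation, rose by 2.27 ± 0.115 (2.41e-08), and PLAAT4, a retinoid-induced phospholipase, by 3.88 ± 0.217 (5.52e-08). CD38 averaged 181 ± 16.3 CPM with LAA+ATRA, 240 ± 17.9 CPM with ATRA, 1.35 ± 0.0906 CPM with LAA and 1.91 ± 0.318 CPM in vehicle.

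Among 8 other transglutaminases, 5 were tested, and 3 were called higher with ATRA and none lower by edgeR, with a median of 1.42. TGM5, an epidermal enzyme, averaged 57.8 ± 0.87 CPM with LAA+ATRA, 61.1 ± 5.09 CPM with ATRA, 24.7 ± 1.9 CPM with LAA and 22.9 ± 4.53 CPM in vehicle, and rose with ATRA by 1.42 ± 0.136 (edgeR adjusted p = 5.45e-06). TGM3 rose by 2.98 ± 0.519 (0.00059) at no more than 4.05 CPM on average in any group. TGM4 was called at an edgeR adjusted p of 0.0452, with no more than 0.848 CPM on average in any group. The call was lost with DESeq2 (0.107), length offsets (0.0825), no low-count filter (0.0517) and limma on log2(FPKM + 1) with no filter (0.095). It was also lost when either vehicle, either ATRA or either LAA+ATRA library was left out. The tested transglutaminases that were not called, F13A1 and TGM1, were at -0.04 (edgeR adjusted p = 0.909) and -0.28 (0.685).

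Of 12 partners of TGM2 and genes of apoptotic cell uptake, 8 were tested, and 3 were called higher and 1 lower with ATRA. CD36, a scavenger receptor, rose by 4.34 ± 0.18 (edgeR adjusted p = 4.8e-09), and MERTK, a receptor kinase for apoptotic cell uptake, by 1.95 ± 0.116 (9.39e-08). ITGB1, the integrin chain that binds TGM2 at the cell surface, rose by 0.41 ± 0.103 (0.00631) but not without vehicle replicate 2 (0.102). MFGE8, a bridging protein, fell by 0.54 (0.00627) but not without vehicle replicate 1 (0.0709).

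With LAA+ATRA against ATRA, ITGB1 and MERTK were called lower, each at -0.57, with edgeR adjusted p-values of 0.0338 and 0.0428. In that comparison 0.52% of all genes were called lower. Leaving out any library but ATRA replicate 1 ended both calls, up to 0.115. They were also lost with the replicate number as a block, at 0.0643 and 0.0696. Over the alternatives adjusted p reached 0.168 for ITGB1 and 0.594 for MERTK, whose log2 fold change ran from -0.57 to -0.32. With LAA against vehicle, ITGB1 was at -0.38 (edgeR adjusted p = 0.0899) and MERTK at -0.34 (0.161). Their interactions were -0.19 (0.986) and -0.23 (0.986). None of these was called.

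Of 13 other formins, 9 were tested, and 2 were called higher and 4 lower with ATRA (42.9% of all genes were called), with a median of -0.27. FMNL2 rose by 2.33 ± 0.119 (edgeR adjusted p = 2.58e-08) and FMNL3 by 1 ± 0.141 (0.000122), both of them formins of lamellipodia and filopodia. DIAPH3 and DIAPH2, formins of the diaphanous group, fell by 0.58 (0.00159) and 0.46 (0.0025), but DIAPH3 was not called with length offsets (0.0712) or in any limma fit (0.104 to 0.18), nor DIAPH2 with limma on log2(FPKM + 1) with no filter (0.0617). DAAM1, the paralog of DAAM2, was expressed in every group and was at 0.4 ± 0.198 (0.128) with ATRA, and it rose by 0.59 ± 0.207 with LAA+ATRA over LAA (0.0403). FMNL2 was called lower with LAA+ATRA than with ATRA, at -0.57 and an edgeR adjusted p of 0.0428, as were 0.52% of all genes. That call was lost whenever 1 of the 8 libraries was left out, and with the block (0.0629). Over the alternatives the FMNL2 value ran from -0.58 to -0.47 and its adjusted p reached 0.289. With LAA against vehicle FMNL2 was at -0.6 (edgeR adjusted p = 0.0569), and its interaction was 0.02, neither called.

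Of 16 genes listed as partners of DAAM proteins, Dishevelled proteins, small GTPases and actin regulators among them, 14 were tested, and 3 were called higher and 1 lower with ATRA (42.9% of all genes were called), with a median of 0.05. PFN1 and CFL1, an actin monomer binder and an actin-severing protein, rose by 0.96 ± 0.0993 (edgeR adjusted p = 1.09e-05) and 0.51 ± 0.0988 (0.00131). CDC42, a small GTPase of cell polarity, rose by 0.86 ± 0.199 (0.00405), and DVL1, a Dishevelled protein, fell by 0.71 (0.00467).

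The HIC1 relative HIC2 and the corepressors made up 6 tested genes, of which 3 were called lower and none higher with ATRA by edgeR. MTA1, a subunit of the NuRD complex, fell by 0.9 (edgeR adjusted p = 0.00012). CTBP1, a corepressor that binds HIC1, was called at -0.36 (0.0154) but not without vehicle replicate 2 (0.131) or ATRA replicate 2 (0.0945). HIC2 was called at -0.56 (0.034) but not without vehicle replicate 1, vehicle replicate 2 or ATRA replicate 2, up to 0.255. HIC2 averaged 7.78 ± 0.0907 CPM with LAA+ATRA, 7.91 ± 2.34 CPM with ATRA, 10.7 ± 0.322 CPM with LAA and 11.6 ± 0.107 CPM in vehicle, and it was thus present where HIC1 was nearly absent.

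Of 10 genes described as repressed by HIC1, 6 were tested, and 3 were called lower and 1 higher with ATRA (21% and 21.9% of all genes), with a median of -0.36. CDKN1C, a cell cycle inhibitor, fell by 1.25 (edgeR adjusted p = 0.00442). EFNA1, an ephrin, was called at -1.62 (0.0353) but not when either vehicle or either ATRA library was left out, up to 0.175. ACKR3, a chemokine scavenger receptor, was called higher (0.00211), with 0.503 ± 0.000265 CPM with LAA+ATRA, 0.852 ± 0.0459 CPM with ATRA and no counts with LAA or in vehicle. SIRT1, the deacetylase that binds HIC1, was at 0.12 (0.548). Of the relatives of ARL14EPL, ARL14EP was at -0.26 ± 0.187 (0.279) and MYO1E at -0.49 (0.2).

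Across the 8 libraries, the 4 genes followed the same split between libraries with and without ATRA, and Pearson correlations of their log2 CPM between pairs ran from 0.9926 to 0.9991. Of 13249 other genes, those most like TGM2 were FGR (0.9996), DAAM2 (0.9991) and PTPN7 (0.999). Those most like HIC1 were HK3 (0.9991), NRP1 (0.999) and ITGAM (0.9988). Those most like DAAM2 were POR (0.9991), TGM2 (0.9991) and UXS1 (0.9989), and those most like ARL14EPL were PLTP (0.9995), PLAAT4 (0.999) and HEIH (0.9989). These coefficients rest on the same 8 libraries and on the ATRA split and are given without a test.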

How the data were processed

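RNA of U-937 cells was enriched for poly-A and made into NEBNext Ultra II libraries, per the labels' protocols. GRCh38 and hg38 are the builds in the submitters' processing notes, which also list the tools Salmon 1.8.0 and DESeq2 1.36.0. No annotation release or strand setting is given. Estimated counts per gene, as deposited, are not whole and were rounded, which changed 16.5% of values. FPKM, as deposited, uses gene lengths that differ between libraries. Of 61125 rows, 25951 carry no symbol.

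Counts were filtered with filterByExpr and scaled by TMM, and a quasi-likelihood model with 4 group means was fitted to the 8 libraries in edgeR 4.0.16 (R 4.3.3), with 4 residual and 8.2 prior degrees of freedom (dispersion 0.0124). P-values are two-sided and adjusted by Benjamini-Hochberg over the 14995 genes of each comparison, and a gene was called under 0.05. Library depth was 18462552 to 24166770 counts, and a floor of 3 counts over a group stands for 0.0724 to 0.0794 CPM. Implied length is the count divided by FPKM and library total, scaled so that each library has the same median. The script was tested on simulated counts.

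Alternatives were DESeq2 1.42.0, RLE size factors, no low-count filter, replicate number as a block, length offsets, limma 3.58.1 on log2(FPKM + 1) with and without a filter at a mean of 1 FPKM and on log2(FPKM + 0.1), fits of only the libraries compared, and leaving out each library. The members and gene lists were chosen with earlier results of these data known. Named were the 4 genes, up to 4 called genes per list by adjusted p, and the relatives TGM1, F13A1, HIC2, DAAM1 and ARL14EP. Also named were tested neighbours within 200 kb and the class genes of highest ATRA level. Last came the 3 genes of highest Pearson correlation (log2 CPM with a prior count of 2) per member. SIRT1 was named after its value was seen. The result of 1 called list gene is not reported here. Positions came from GENCODE 29 and promoters from RefSeq GRCh38.p14.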

Additional observations from a re-analysis of the deposited data

How the results depend on the processing

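Across 17 alternatives, all 4 genes stayed called higher with LAA+ATRA than with LAA, and HIC1 ranged from 4.38 to 6.54. With LAA+ATRA against ATRA, the number of the 4 called was 0, against 3 with no low-count filter (TGM2 -0.43, HIC1 -0.56, DAAM2 -0.56), 1 with DESeq2 (HIC1 -0.56), and 0 to 1 when a library was left out; without ATRA replicate 2, HIC1 was called. Leaving out a library gave TGM2 -0.61 to -0.22, HIC1 -0.81 to -0.27, DAAM2 -0.9 to -0.27 and ARL14EPL -0.03 to 0.31. The ATRA libraries helped to choose the 4 genes, so their calls in this comparison are a description. For HIC1, LAA against vehicle reversed to -0.72 with length offsets, -0.22 on log2(FPKM + 1) with and without a filter and -0.63 on log2(FPKM + 0.1), and ran from 0.69 to 1.04 with a library left out. Its interaction became -1.42 with no filter, 0.13 with length offsets and 0.04 on log2(FPKM + 0.1), and ran from -1.66 to -1.12 with a library left out. ATRA against vehicle for HIC1 moved to 6.41 with length offsets, 4.73 on log2(FPKM + 1) with and without a filter and 6.07 on log2(FPKM + 0.1), and ran from 7.45 to 7.98 with a library left out. The implied HIC1 lengths in vehicle differ, as reported; otherwise the cause was not tested.

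Genes called with LAA+ATRA against ATRA numbered 152, and 903 with no filter, 661 with DESeq2, 15 with length offsets, 15 with only the libraries compared, 6, 4 and 27 with limma on log2(FPKM + 1), on log2(FPKM + 0.1) and on log2(FPKM + 1) with no filter, and 5 to 194 with a library left out. With LAA against vehicle they numbered 4, and 0 to 2187 over the alternatives. The interaction called 1, and up to 136. Against LAA and vehicle, limma on log2(FPKM + 1) with no filter called 3352 and 4163, against 5451 and 6428. That setting also ended the ATRA calls on CDC42 (0.0724), DVL1 (0.0645), CDKN1C (0.118) and TTI1 (0.0722). Over all tested genes, same-numbered replicates did not deviate together (correlations from -0.0727 to 0.0771). For TGM2, HIC1 and DAAM2, replicate 1 exceeded replicate 2 in both groups with ATRA. With the replicate block, TGM2 was at -0.42, HIC1 at -0.54, DAAM2 at -0.57 and ARL14EPL at 0.15 with LAA+ATRA against ATRA, none called, all 4 stayed called against LAA, HIC1 was at 0.85 with LAA against vehicle, and 30 genes were called in place of 152. Groups of 2 libraries limit the precision of every value, and 3 of the 4 genes have no measurable level without ATRA.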
